A study of Mus musculus with 8 samples.

Results

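The 9 genes described here are 8 transcription factors and 1 secreted growth factor, grouped here under the formative and primed states of pluripotency. They are Fgf5, Otx2, Pou3f1, Sox3, Zic2, Zic5, Foxd3, Sox4 and Sox11. They were taken by gene name from the table of raw counts, which lists 57010 genes, and each name matched 1 row. The study measured RNA by sequencing in mouse embryonic stem cells, in 8 libraries that form 4 groups of 2. The group labelled HSVTK GANC is the reporter line given ganciclovir, HSVTK DMSO is the same line given the solvent DMSO, Control GANC is the Control cells given ganciclovir, and Control DMSO is the Control cells given DMSO. The HSVTK line carries the thymidine kinase of herpes simplex virus under a reporter of the 2-cell-like (2C) state, a rare and transient state of stem cells, so that ganciclovir should kill cells in that state. The strain, the dose, the length of treatment, the content of the Control cells and whether the HSVTK line is 1 clone are left unsaid by the sources used here. Nothing in the labels says that both libraries in a group are from cultures grown apart, so p-values reflect library-to-library spread alone, possibly of technical origin.

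Pluripotency is held as a sequence of states. Naive stem cells match the inner cell mass of the blastocyst, formative cells match the early epiblast after implantation, and primed cells match the later epiblast. Otx2 is a homeodomain factor that drives the exit from the naive state and, with Pou5f1, opens enhancers of formative genes. Pou3f1, also called Oct6, is a POU factor induced with it, and Fgf5 is the secreted fibroblast growth factor long used to mark epiblast after implantation. Zic2 and Zic5 are zinc finger factors of 1 family, Foxd3 is a forkhead factor needed to keep the epiblast and later the neural crest, Sox3 is a close relative of Sox2, and Sox4 and Sox11 are activators of the SoxC group, best known from neural progenitors.

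Libraries held 29704460 to 34184475 counts. Zscan4c, a marker of the 2C state, averaged 8.70 ± 0.247 CPM (counts of a gene in each 1e+06 counted, scaled between libraries) in the libraries labelled HSVTK GANC and 4.15 ± 0.786 CPM in those labelled HSVTK DMSO (SD, n = 2 each). That goes against what the labels imply, so each direction below, and each group name, is that of the libraries so labelled. All 6 defining stem cell markers (Pou5f1, Nanog, Sox2 and 3 others) were detected in every group. Mitochondrial transcripts took 3.56 and 3.45% of counts in the libraries labelled HSVTK GANC and 2.88 to 3.17% in the other 6. Of the lists of markers of other cell types, 7 trophectoderm markers summed to 20.3 to 21.2 CPM in HSVTK GANC, 39.0 to 39.7 CPM in HSVTK DMSO, 41.1 to 41.2 CPM in Control GANC and 37.5 to 41.3 CPM in Control DMSO, with Elf5 at 0 in HSVTK GANC and Plac1 at 0 in the other groups. Most of that sum was Tfap2c, at 18.3, 36.9, 37.3 and 35.9 CPM in the same order of groups, and for HSVTK GANC against HSVTK DMSO it was the 1 marker called of 5 tested, with a list median log2 fold change of 0.19. The 9 primitive endoderm markers summed to 53.3 to 57.5, 71.0 to 73.6, 59.4 to 62.9 and 47.6 to 50.5 CPM in the same order of groups. Most of that sum was Lamb1, at 32.4, 44.8, 51.0 and 38.6 CPM, while Gata6 had 1.52, 1.91, 0.0961 and 0.176 CPM. For HSVTK GANC against Control GANC, 5 of the 9 were called higher and 1, Lamb1, lower, with a median log2 fold change of 1.13. Over all genes 11.1% were called higher there and 14.9% lower. For HSVTK GANC against HSVTK DMSO, 1 was called higher and 2 lower, where 13.3% and 15.2% of all genes were. The 8 fibroblast and feeder markers summed to 20.4 to 21.1, 21.1 to 24.2, 14.9 to 17.2 and 10.2 to 11.5 CPM in the same order of groups. Most of that sum was Thy1, at 16.1, 15.4, 10.5 and 7.82 CPM, and Pdgfrb had 3.58, 6.31, 4.06 and 1.95 CPM. The other 6 markers were below 1 CPM in each group. The 12 neuroectoderm markers summed to 147 to 157, 121 to 130, 137 to 152 and 164 to 175 CPM, with Dcx at 0 throughout and 8 markers below 1 CPM in each group. Most of it was Tubb3, at 133, 105, 107 and 118 CPM, while Pax6 had 7.54, 9.30, 23.9 and 39.8 CPM. Whether cells of these other types were present, and whether they had a part in the results below, was not tested. In bulk RNA, fewer cells that express a gene and less of its RNA per cell cannot be told apart.

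Per length, Foxd3, Zic2, Sox4 and Zic5 were the 4 most abundant members in every group, and Fgf5 was the lowest. Foxd3 averaged 33.5 ± 3.55 FPKM (counts scaled by gene length and library total) in HSVTK GANC, 20.9 ± 1.51 FPKM in HSVTK DMSO, 25.3 ± 3.25 FPKM in Control GANC and 23.3 ± 0.767 FPKM in Control DMSO. Zic2 took the first rank in HSVTK DMSO alone, at 22.5 ± 0.175 FPKM, 1 place above Foxd3. In HSVTK GANC it averaged 4.91 ± 0.228 FPKM and stood below Sox4, which had 7.98 ± 0.827 FPKM there. Otx2 had group means of 1.68 to 5.17 FPKM, the highest in HSVTK DMSO, where it stood above Pou3f1 and Sox11, and Sox3 had 0.978 to 1.88 FPKM. The summed level of the 9 members was 188 and 173 CPM in HSVTK GANC, 264 and 274 CPM in HSVTK DMSO, 224 and 237 CPM in Control GANC, and 196 and 201 CPM in Control DMSO. Zic2 and Zic5 together gave 14.6 and 16.2% of the members' counts in HSVTK GANC, 47.5 and 47.6% in HSVTK DMSO, 29.2 and 27.1% in Control GANC, and 25.3 and 25.8% in Control DMSO. Foxd3 gave 43.4 and 40.7% in HSVTK GANC, 17.5 and 18.6% in HSVTK DMSO, 24.0 and 27.6% in Control GANC and 27.5 and 28.0% in Control DMSO. Foxd3 thus gave the largest share of the set in HSVTK GANC and the Zic pair in HSVTK DMSO.

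**Figure D1:**
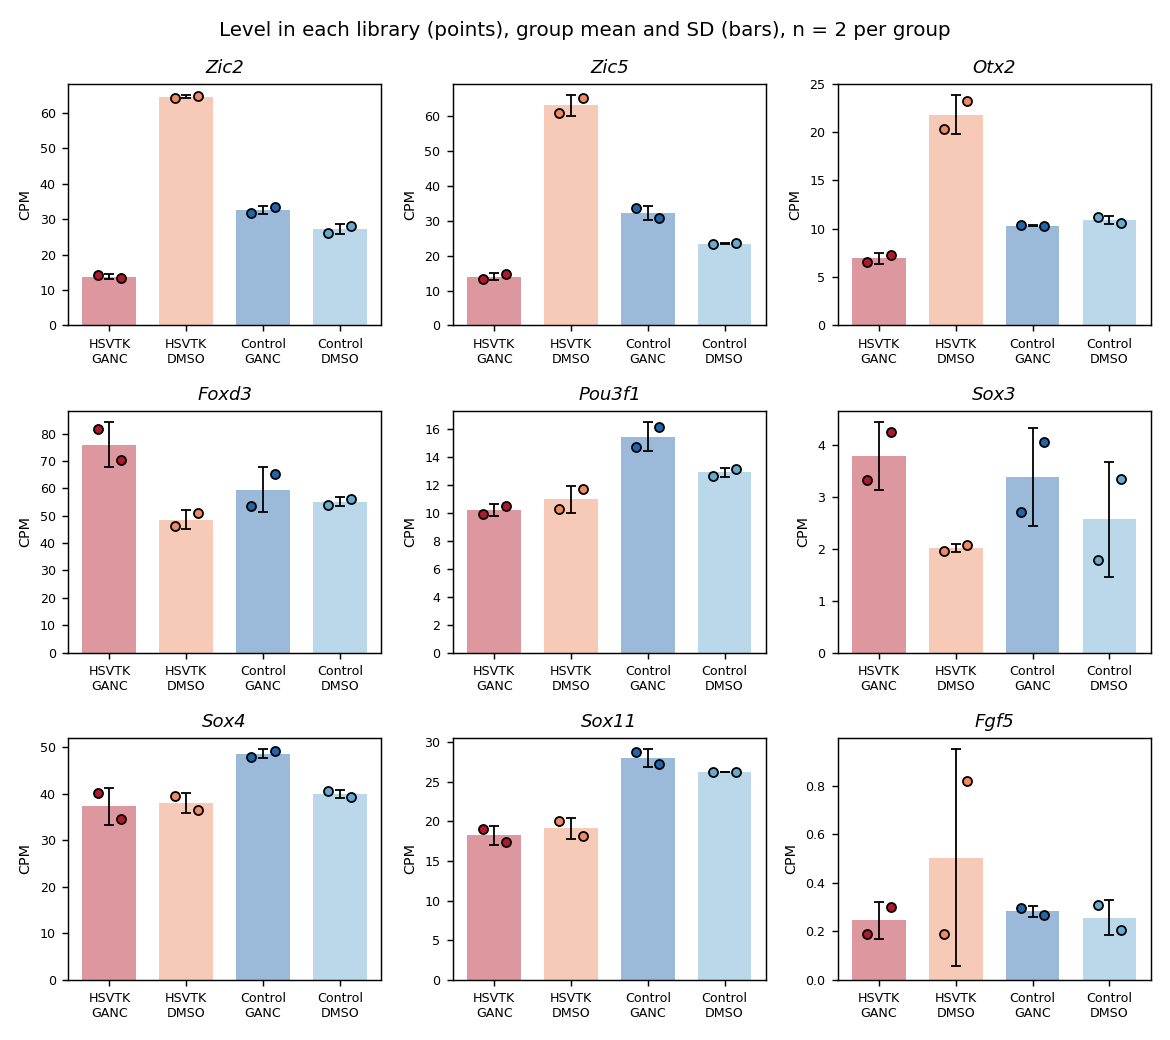
Level of each of the 9 members (CPM, linear axis from 0) by group: points are the 8 libraries, bars the group means and error bars the SD (n = 2). Zic2, Zic5 and Otx2 are lowest in HSVTK GANC and highest in HSVTK DMSO, and Fgf5 lies below 1 CPM in all 8 libraries.

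Fgf5 was close to the limit of detection. It had 6 and 10 counts in HSVTK GANC, 6 and 28 counts in HSVTK DMSO, 10 and 8 counts in Control GANC, and 10 and 6 counts in Control DMSO. The second HSVTK DMSO library was the highest and the other 7 had 10 counts or fewer. Summed over a group, its level was 0.141 to 0.400 CPM in HSVTK GANC, 0.355 to 0.716 CPM in HSVTK DMSO, 0.167 to 0.446 CPM in Control GANC and 0.148 to 0.421 CPM in Control DMSO (exact Poisson 95% intervals, which cover counting error only). It did not pass the filter on low counts and has no value in the main tests. In an edgeR fit without that filter its log2 fold change was -1.04 ± 0.71 (SE) for HSVTK GANC against HSVTK DMSO, with an adjusted p of 0.469, so no difference passed the test.

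Promoter sequences are shown for the members with the largest changes that RefSeq (build GRCm38.p6, the table's own and not the authors') lists, so that the stretch before each start can be read beside the values. Each is the 250 bases before an annotated start, 5′ to 3′ on the gene's strand. The following 6 motifs were searched on both strands: TAATCC (the OTX core, in 6.25% of 32851 promoters of this length), ATGCAAAT (the POU octamer, 1.60%), CATTGT (a SOX core, 10.7%), CTTTGA (a TCF/LEF core, 13.8%), GGGCGG (the GC box, 32.7%) and TATAAA (the TATA box, 12.4%). No motif contains another. Capitals mark matches. Zic5 lies at chr14:122465659-122465908 (minus strand) and Foxd3 at chr4:99656049-99656298 (plus strand). RefSeq lists 4 starts for Otx2, of which the 2 with a match are shown. The first lies at chr14:48667645-48667894 and the third at chr14:48665110-48665359 (both minus strand).
Zic5: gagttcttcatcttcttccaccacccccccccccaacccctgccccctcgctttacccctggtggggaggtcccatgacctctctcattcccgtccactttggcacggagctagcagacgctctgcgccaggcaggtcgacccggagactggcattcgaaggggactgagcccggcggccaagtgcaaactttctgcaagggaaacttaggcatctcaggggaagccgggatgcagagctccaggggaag
Foxd3: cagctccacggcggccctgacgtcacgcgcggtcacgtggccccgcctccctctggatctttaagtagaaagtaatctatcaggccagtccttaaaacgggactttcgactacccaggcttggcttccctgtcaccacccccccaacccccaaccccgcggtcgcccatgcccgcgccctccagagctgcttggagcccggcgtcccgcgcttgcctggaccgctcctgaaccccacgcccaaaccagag
Otx2, the first start: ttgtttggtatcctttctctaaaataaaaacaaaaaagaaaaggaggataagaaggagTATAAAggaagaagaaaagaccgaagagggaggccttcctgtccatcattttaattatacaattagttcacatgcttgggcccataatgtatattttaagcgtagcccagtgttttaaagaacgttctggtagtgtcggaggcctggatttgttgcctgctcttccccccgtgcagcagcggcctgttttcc
Otx2, the third start: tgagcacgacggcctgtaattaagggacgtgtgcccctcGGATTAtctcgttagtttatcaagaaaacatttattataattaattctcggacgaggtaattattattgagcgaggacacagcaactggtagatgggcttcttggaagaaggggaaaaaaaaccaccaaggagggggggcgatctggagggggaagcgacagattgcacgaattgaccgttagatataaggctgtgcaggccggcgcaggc
The first Otx2 stretch holds the letters TATAAA, at -192 from the start. The third holds the OTX core on the opposite strand, at -211. Whether either match is used was not tested. The Zic5 and Foxd3 stretches hold none of the 6 motifs, and draw 62.4 and 65.6% of their bases from G and C, against 42.0 and 48.4% in the first and the third Otx2 stretch and a median of 52.4% over all promoters. Foxd3 has 21 CpG pairs, Zic5 has 11, and the Otx2 stretches have 6 and 14, against a median of 6. The Otx2 starts not shown hold none of the 6 motifs, with 49.2 and 53.6% G and C and 8 and 9 CpG pairs.

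Otx2 fell in HSVTK cells under ganciclovir and was high in HSVTK cells under DMSO. It had 206 and 245 counts in HSVTK GANC, 653 and 795 in HSVTK DMSO, 348 and 310 in Control GANC and 364 and 310 in Control DMSO. In scaled units that was 6.53 and 7.32 CPM in HSVTK GANC, 20.3 and 23.2 CPM in HSVTK DMSO, 10.4 and 10.3 CPM in Control GANC, and 11.2 and 10.6 CPM in Control DMSO. Both HSVTK DMSO libraries lay above all others and both HSVTK GANC libraries below all others. Between HSVTK GANC and HSVTK DMSO the log2 fold change was -1.65 ± 0.13, a 3.14-fold lower level (edgeR quasi-likelihood test, adjusted p = 8.35e-11). Between Control GANC and Control DMSO it was -0.08 ± 0.13 with an adjusted p of 0.781, although both Control GANC libraries lay just below both Control DMSO libraries. Under DMSO alone, HSVTK cells had 2.00-fold more Otx2 than Control cells (log2 1.00 ± 0.12, adjusted p = 1.67e-07), and under ganciclovir 1.49-fold less (log2 -0.57 ± 0.13, adjusted p = 0.00158). The 2 annotated genes whose exons overlap those of Otx2 had at most 12 counts in a library. The sources used here do not state whether reads were counted by strand. In unfiltered limma on log2(FPKM + 1) the difference from Control GANC was not called (adjusted p = 0.0569).

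Zic2 and Zic5 showed the widest range of the 9. Both are zinc finger factors of the Zic family, and Zic2 is known for its need in forebrain midline formation. They lie on chromosome 14 on opposite strands, with 1 noncoding gene between them. Zic2 had 14.3 and 13.3 CPM in HSVTK GANC, 64.3 and 64.9 CPM in HSVTK DMSO, 31.7 and 33.5 CPM in Control GANC, and 26.2 and 28.2 CPM in Control DMSO. Zic5 had 13.3 and 14.6 CPM in HSVTK GANC, 61.1 and 65.2 CPM in HSVTK DMSO, 33.8 and 30.8 CPM in Control GANC, and 23.4 and 23.6 CPM in Control DMSO. For both genes the order was HSVTK DMSO, Control GANC, Control DMSO, HSVTK GANC, and no libraries of different groups overlapped. In HSVTK cells under ganciclovir against DMSO, Zic2 fell 4.68-fold (log2 -2.23 ± 0.09, adjusted p = 1.36e-16) and Zic5 fell 4.52-fold (log2 -2.18 ± 0.09, adjusted p = 3.59e-16). By p-value Zic2 was 4th and Zic5 6th of the 17976 genes tested. In Control cells Zic5 rose 1.37-fold under ganciclovir (log2 0.46 ± 0.09, adjusted p = 0.00217). That call was lost in the 3 settings of limma on log2 FPKM (adjusted p = 0.0511 to 0.115). Zic2 had a log2 fold change of 0.26 ± 0.09 there, with an adjusted p of 0.062, which passed in DESeq2 (0.0469) and without the first Control GANC library (0.0405). Under DMSO, HSVTK cells had 2.38-fold more Zic2 (log2 1.25 ± 0.09, adjusted p = 2.85e-12) and 2.69-fold more Zic5 (log2 1.43 ± 0.09, adjusted p = 5.29e-13) than Control cells.

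The ratio of Zic2 to Zic5 per length moved little while both levels moved several-fold. It was 1.83 and 1.55 in HSVTK GANC, 1.79 and 1.69 in HSVTK DMSO, 1.60 and 1.85 in Control GANC, and 1.90 and 2.03 in Control DMSO. A noncoding gene that lies between the pair in the GENCODE vM21 order, 2610035F20Rik, varied the same way. It had 61 and 52 counts in HSVTK GANC, 180 and 212 counts in HSVTK DMSO, 126 and 109 counts in Control GANC, and 73 and 85 counts in Control DMSO. Its log2 fold change was -1.76 ± 0.22 in HSVTK GANC against HSVTK DMSO (adjusted p = 6.27e-07) and 1.20 ± 0.21 in HSVTK DMSO against Control DMSO (adjusted p = 5.2e-05). All 3 transcripts of the locus were therefore lowest in HSVTK GANC and highest in HSVTK DMSO.

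Foxd3, the forkhead factor, went the other way from the Zic pair. It had 81.7 and 70.2 CPM in HSVTK GANC, 46.1 and 51.0 CPM in HSVTK DMSO, 53.7 and 65.3 CPM in Control GANC, and 53.9 and 56.2 CPM in Control DMSO. The HSVTK GANC libraries were the highest 2 and the HSVTK DMSO libraries the lowest 2. It rose 1.56-fold in HSVTK cells under ganciclovir against DMSO (log2 0.64 ± 0.09, adjusted p = 2.7e-06). In Control cells its log2 fold change was 0.11 ± 0.09 with an adjusted p of 0.514, and the libraries overlapped. Under ganciclovir it was 1.28-fold higher in HSVTK cells than in Control cells (log2 0.35 ± 0.09, adjusted p = 0.00332), but without the first Control GANC library the adjusted p was 0.119 and without the first HSVTK GANC library it was 0.136, with log2 fold changes of 0.20 and 0.23, and in unfiltered limma it was 0.0949. The neighbouring Gm12688 averaged 13.1 CPM in HSVTK GANC, 9.90 CPM in HSVTK DMSO, 8.10 CPM in Control GANC and 11.2 CPM in Control DMSO. It rose by 0.40 on the log2 scale in HSVTK cells (adjusted p = 0.0197) and fell by 0.46 in Control cells (adjusted p = 0.0309), where Foxd3 did not pass the test.

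Pou3f1, the POU factor, differed by cell group under ganciclovir and not detectably by drug. It had 9.89 and 10.5 CPM in HSVTK GANC, 10.3 and 11.7 CPM in HSVTK DMSO, 14.7 and 16.2 CPM in Control GANC, and 12.7 and 13.1 CPM in Control DMSO. All 4 HSVTK libraries lay below all 4 Control libraries. It was 1.51-fold lower in HSVTK GANC than in Control GANC (log2 -0.60 ± 0.12, adjusted p = 0.00053), while under DMSO its log2 fold change was -0.23 ± 0.12 with an adjusted p of 0.161. For ganciclovir against DMSO its log2 fold change was -0.11 ± 0.13 in HSVTK cells (adjusted p = 0.579) and 0.26 ± 0.12 in Control cells (adjusted p = 0.204).

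The Sox members did not move as a group. Sox11 had 19.1 and 17.4 CPM in HSVTK GANC, 20.1 and 18.2 CPM in HSVTK DMSO, 28.8 and 27.2 CPM in Control GANC, and 26.2 in both Control DMSO libraries. It was lower in HSVTK cells under both treatments, 1.37-fold under DMSO (log2 -0.45 ± 0.10, adjusted p = 0.000625) and 1.53-fold under ganciclovir (log2 -0.62 ± 0.10, adjusted p = 2.48e-05), and the drug made no difference that passed the test in either cell group. Sox4, from the same SoxC group, had 40.1 and 34.6 CPM in HSVTK GANC, 39.6 and 36.6 CPM in HSVTK DMSO, 47.9 and 49.3 CPM in Control GANC, and 40.6 and 39.3 CPM in Control DMSO. The 2 Control GANC libraries stood above the other 6. Sox4 was 1.30-fold lower in HSVTK GANC than in Control GANC (log2 -0.38 ± 0.09, adjusted p = 0.00129), a call that was lost without the second HSVTK GANC library (adjusted p = 0.051) and in unfiltered limma (0.0664). It rose by 0.28 ± 0.09 on the log2 scale in Control cells under ganciclovir (adjusted p = 0.0379), a call that was lost without either Control DMSO library (adjusted p = 0.13 and 0.23), without the second Control GANC library (0.135) and without the first HSVTK DMSO library (0.0511). It was lost too with only the libraries compared (0.0509) and in the 3 limma settings (0.113 to 0.225).

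Sox3, the X-linked relative of Sox2, had few counts. It had 105 and 142 counts in HSVTK GANC, 63 and 71 in HSVTK DMSO, 91 and 122 in Control GANC, and 58 and 98 in Control DMSO. The HSVTK GANC libraries lay above the HSVTK DMSO libraries, while the Control groups overlapped. It rose 1.88-fold in HSVTK GANC against HSVTK DMSO (log2 0.91 ± 0.27, adjusted p = 0.0125). The call was lost without the first or the second HSVTK DMSO library (adjusted p = 0.0733 and 0.0512), without the second HSVTK GANC library (0.149) and in the 3 limma settings (0.0702 to 0.184). No other comparison of Sox3 passed the test.

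**Figure D2:**
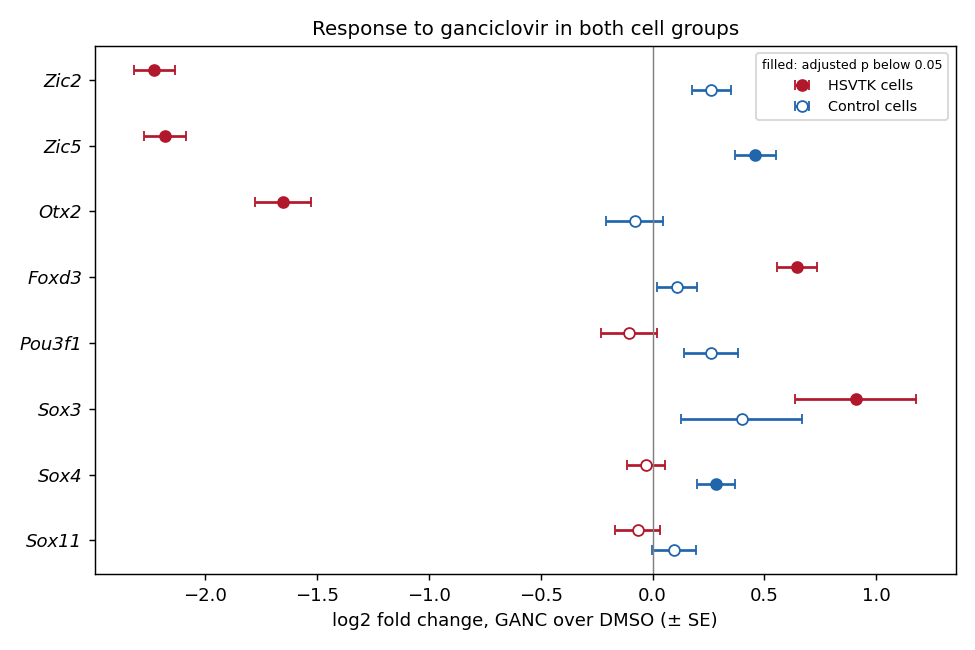
Log2 fold change for ganciclovir against DMSO (± SE, edgeR) of the 8 tested members in HSVTK cells and in Control cells. Zic2, Zic5 and Otx2 lie at -2.23, -2.18 and -1.65 in HSVTK cells and at 0.26, 0.46 and -0.08 in Control cells. Filled points have an adjusted p below 0.05.

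In HSVTK cells under ganciclovir against DMSO, 3 of the 8 tested members fell (Zic2, Zic5 and Otx2) and 2 rose (Foxd3 and Sox3), while Pou3f1, Sox4 and Sox11 did not pass the test. Over all genes tested, 28.5% were called in this comparison, 13.3% higher and 15.2% lower. The members were chosen with earlier results of these data known, so the counts of called members are not independent of the data. The median log2 fold change was -0.09 over the members and 0.01 over all tested genes. In Control cells, 2 members rose (Zic5 and Sox4) and 6 did not pass, where 8.08% of all genes were called 4.73% higher and 3.35% lower. The median there was 0.26 over the members and -0.0039 over all genes.

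The difference of the 2 responses was tested directly. Zic5 differed by -2.64 ± 0.13 on the log2 scale (HSVTK response minus Control response, adjusted p = 1.07e-14), Zic2 by -2.49 ± 0.13 (adjusted p = 1.67e-14) and Otx2 by -1.57 ± 0.18 (adjusted p = 1.61e-07). Foxd3 differed in the other direction, by 0.53 ± 0.13 (adjusted p = 0.00215; 0.107 in unfiltered limma). For Sox4 (-0.31 ± 0.12, adjusted p = 0.059), Pou3f1 (-0.37 ± 0.17, 0.127), Sox3 (0.51 ± 0.38, 0.364) and Sox11 (-0.16 ± 0.14, 0.441) the test was not passed, although Sox4 passed it without the first Control GANC library (0.038) or without the first HSVTK GANC library (0.0173). The called members are thus 4 of 8, where 25.6% of all genes were called, 11.6% higher and 14.0% lower. The Sox3 rise in HSVTK cells is not shown to differ from its value in Control cells, 0.40 ± 0.27.

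**Figure D3:**
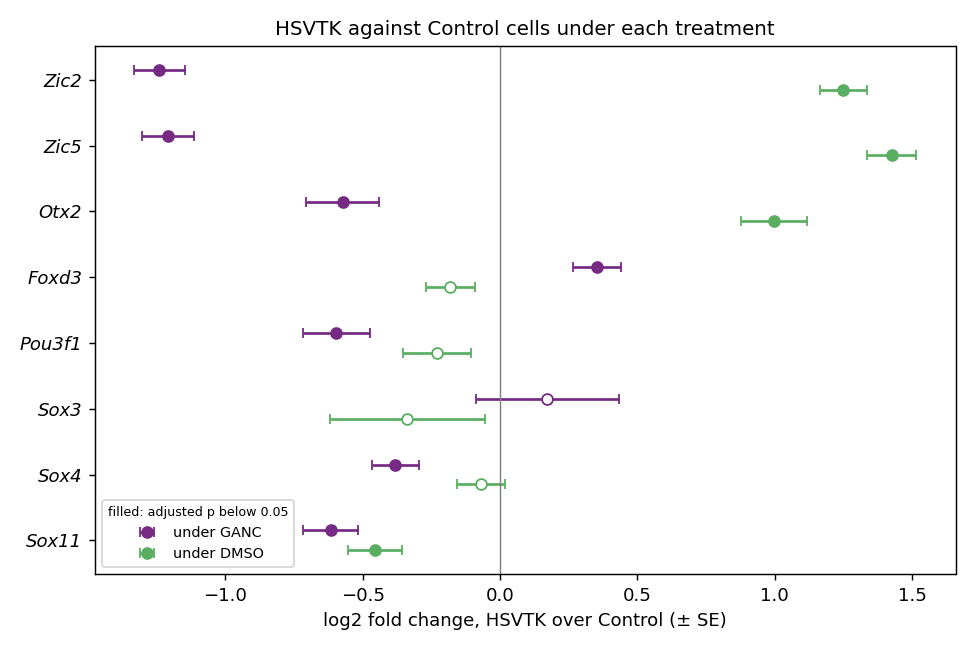
Log2 fold change for HSVTK against Control cells (± SE, edgeR) of the 8 tested members under ganciclovir and under DMSO. Zic2 lies at -1.24 under ganciclovir and at 1.25 under DMSO, and Sox11 lies below 0 under both. Filled points have an adjusted p below 0.05.

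The cell groups also differed within each treatment. Under DMSO, HSVTK cells had more Zic5, Zic2 and Otx2 and less Sox11 than Control cells, so 3 members were called higher and 1 lower, where 33.7% of all genes were called, 16.4% higher and 17.3% lower. The median was -0.12 over the members and 0.0031 over all genes. Under ganciclovir, HSVTK cells had less Zic2 (2.36-fold, log2 -1.24 ± 0.09, adjusted p = 3.2e-11), Zic5 (2.31-fold, log2 -1.21 ± 0.10, adjusted p = 8.96e-11), Sox11, Pou3f1, Otx2 and Sox4 and more Foxd3. That is 6 members lower and 1 higher, with Sox3 not passing the test, where 26.1% of all genes were called, 11.1% higher and 14.9% lower. The median was -0.58 over the members and 0.01 over all genes. The HSVTK GANC libraries enter this comparison and the drug comparison in HSVTK cells, so the values of the 2 are not independent.

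Other genes of the formative and primed states moved in both directions. Of 19 on a list from general knowledge, 4 rose and 8 fell in HSVTK cells under ganciclovir against DMSO. Over all genes 13.3% rose and 15.2% fell there. The median log2 fold change was -0.13 over the list, against 0.01 over all genes. This list and those below were chosen with earlier results of these data known, so their counts are not independent of the data. Lef1, a partner of beta-catenin in Wnt signalling, had 5.58 and 6.49 CPM in HSVTK GANC, 24.9 CPM in both HSVTK DMSO libraries, 16.3 and 16.9 CPM in Control GANC, and 11.1 and 10.5 CPM in Control DMSO. It fell by 2.04 on the log2 scale in HSVTK cells (adjusted p = 4.29e-13) and rose by 0.62 in Control cells (adjusted p = 0.0013). Tead2, a partner of Yap, fell by 0.72 (adjusted p = 7.49e-09) and Dnmt3a, a DNA methyltransferase, by 0.67 (adjusted p = 1.3e-08) in HSVTK cells. Sall2 rose by 1.47 (adjusted p = 0.00023) and Grhl2, an epithelial factor of the primed enhancers, by 0.61 (adjusted p = 3.34e-05). In Control cells 6 of the 19 rose and 13 did not pass, where 4.73% of all genes rose, with a median of 0.06 against -0.0039 over all genes. The lowest adjusted p-values there belonged to Dnmt3a (0.38, adjusted p = 0.000597), Lef1, Tead2 (0.36, 0.00155), Etv4 (0.25, 0.0166) and Tcf15 (0.31, 0.0252), in log2 fold changes.

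The difference of the responses was called for 10 of these 19, 3 higher and 7 lower, where 25.6% of all genes were called, with a median of -0.20 against 0.02 over all genes. Lef1 differed by -2.66 (adjusted p = 1.85e-12), Tead2 by -1.08 (adjusted p = 3.22e-09), Dnmt3a by -1.06 (adjusted p = 2.33e-09), Cldn6, a tight junction protein, by -0.64 (adjusted p = 0.00404) and Grhl2 by 0.77 (adjusted p = 0.000136). For HSVTK against Control cells under DMSO 7 were higher and 7 lower, where 16.4% of all genes were higher and 17.3% lower, with a median of -0.04 against 0.0031 over all genes. Lef1 (1.21, adjusted p = 1.89e-09) and Tead2 (0.65, 1.53e-08) were higher, and Cdh2, the N-cadherin gene (-2.21, 1.41e-07), the repressor Tcf7l1 (-0.74, 1.18e-07) and the kinase gene Pim2 (-0.86, 2.49e-07) were lower, in log2 fold changes. Under ganciclovir 2 were higher and 9 lower, where 11.1% of all genes were higher and 14.9% lower, with a median of -0.21 against 0.01 over all genes. The lowest adjusted p-values belonged to the DNA methyltransferase Dnmt3b (-0.72, adjusted p = 2.54e-10), Lef1 (-1.46, 3.92e-10), Dnmt3a (-0.78, 5.73e-10), Tcf7l1 (-0.93, 2.99e-09) and Pim2 (-1.04, 2.54e-08).

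The core pluripotency genes had small fold changes. For HSVTK GANC against HSVTK DMSO, Sox2 had a log2 fold change of -0.31 (adjusted p = 6.61e-05), Pou5f1 of 0.12 (adjusted p = 0.108) and Nanog of 0.03 (adjusted p = 0.769). In Control cells Sox2 rose by 0.18 (adjusted p = 0.0365). Nanog was higher in HSVTK than in Control cells, by 0.22 under ganciclovir (adjusted p = 0.00253) and 0.18 under DMSO (adjusted p = 0.00926). Of 16 naive and core genes, 5 fell in HSVTK cells under ganciclovir against DMSO and 11 did not pass, where 28.5% of all genes were called and 15.2% fell, with a median of -0.04 against 0.01 over all genes.

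**Figure D4:**
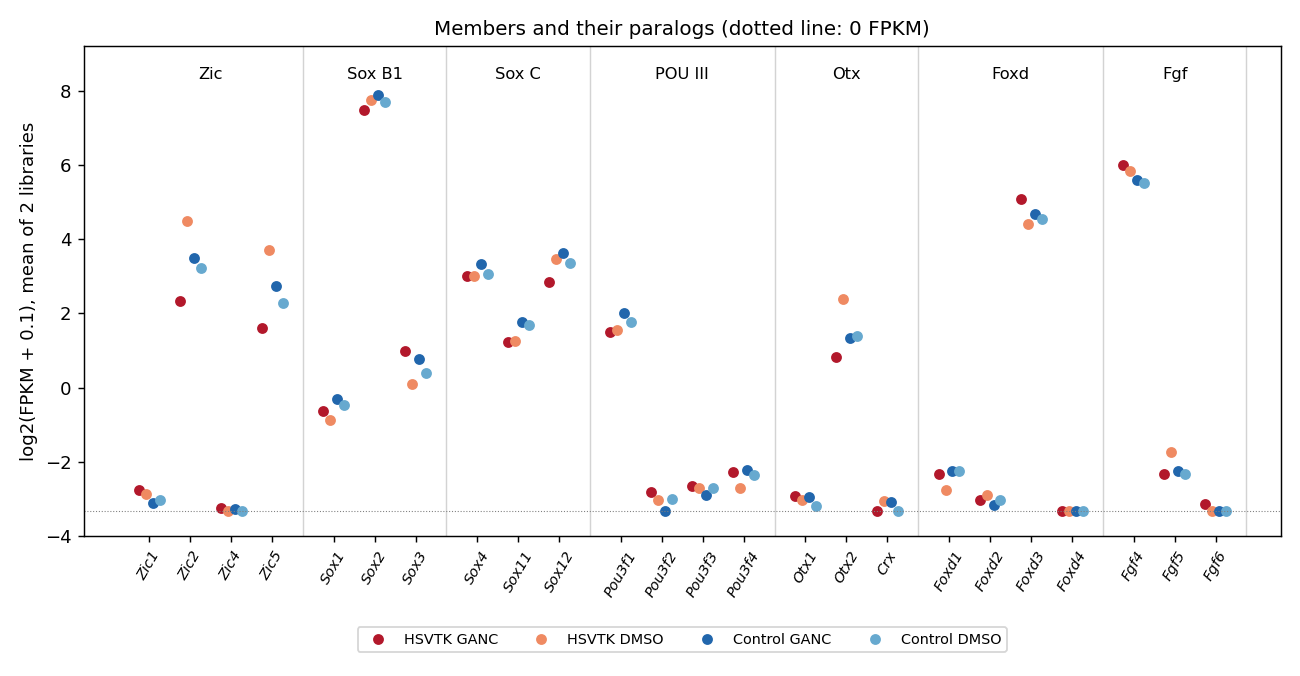
Members and paralogs by family, mean log2(FPKM + 0.1) of 2 libraries in each group; the dotted line is 0 FPKM. Sox2 and Fgf4 lie far above Sox3 and Fgf5, and Zic2 and Zic5 are spread out between the groups.

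Within their families the members were not the most abundant in each case. Sox2 averaged 178 FPKM in HSVTK GANC, 216 FPKM in HSVTK DMSO, 236 FPKM in Control GANC and 207 FPKM in Control DMSO, far above Sox3, the other SoxB1 member described here. Fgf4, the ligand that stem cells make themselves, averaged 63.3, 56.8, 48.5 and 45.8 FPKM in the same order of groups, where Fgf5 had 0.10, 0.201, 0.111 and 0.101 FPKM. Of 18 paralogs 10 were tested, and 3 fell in HSVTK cells under ganciclovir against DMSO: Sox12 by 0.67 on the log2 scale (adjusted p = 2.37e-06), Sox21 by 1.15 (adjusted p = 3.46e-05) and Sox2. The share of all genes called there was 28.5%, with 15.2% falling, and the median was 0.13 over the tested paralogs and 0.01 over all genes. Sox12 and Sox21 were named after their values were seen.

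**Figure D5:**
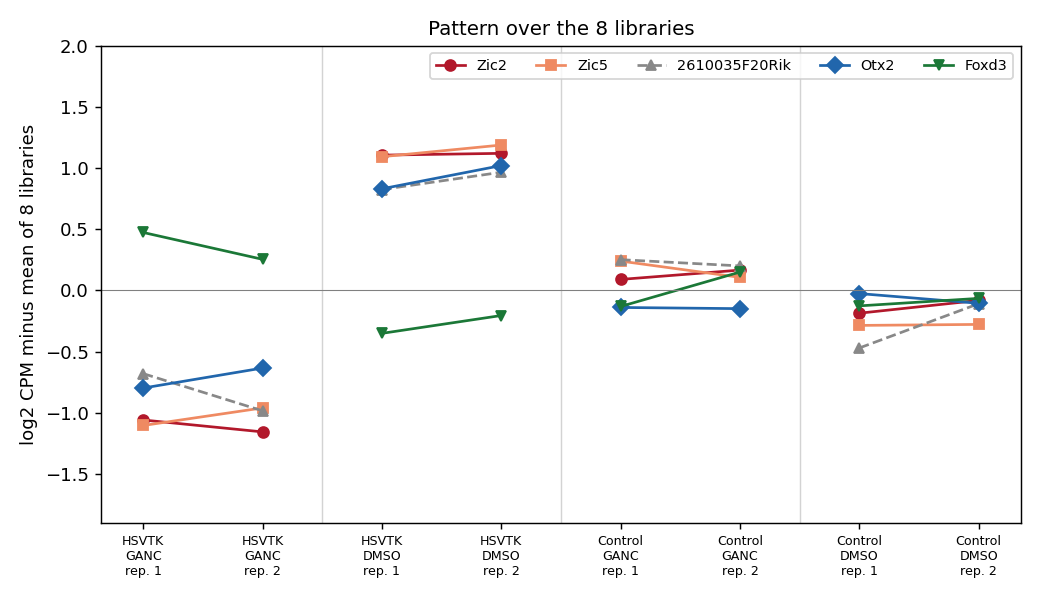
Log2 CPM minus the mean of the 8 libraries for Zic2, Zic5, the gene 2610035F20Rik between them, Otx2 and Foxd3, by library (replicates 1 and 2 of each group). The first 4 are low in HSVTK GANC and high in HSVTK DMSO, and Foxd3 is highest in HSVTK GANC.

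The genes whose pattern was most like a member's were found by the smallest root mean square difference of centred log2 CPM over the 8 libraries. They were sought among 12112 named genes with a mean of at least 1 CPM. Genes with no symbol, a Gm number, a name ending in Rik or an Ensembl name were left out, 2610035F20Rik among them. The measure is a description, since the genes share libraries. For Zic2 they were Zic5 (0.122), Lef1 (0.182) and Anxa2 (0.197), where Zic2 itself had an SD of 0.847 over the libraries. For Otx2 they were Mboat2 (0.172), Mobp (0.193) and Dusp16 (0.193). Its nearest member was Zic5, at 0.275 and rank 41. For Pou3f1 they were Tspan5 (0.0543), Lemd2 (0.067) and Mid1ip1 (0.0695), and for Sox11 Celf1 (0.0462), Sesn3 (0.0519) and Elmo1 (0.0526). The SD over the libraries was 0.636 for Otx2, 0.253 for Pou3f1 and 0.295 for Sox11. A member with a smaller SD can have smaller differences, so these are not comparable between members. Pou3f1 and Sox11 were each other's nearest member at 0.140, but ranked 247 and 270, so many other genes lay closer. Anxa2 averaged 17.3 CPM in HSVTK GANC, 80.3 CPM in HSVTK DMSO, 40.0 CPM in Control GANC and 25.9 CPM in Control DMSO, close to the Zic pattern.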

How the data were processed

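RNA of mouse embryonic stem cells was measured in 8 libraries, 2 in each of 4 groups. Libraries came from total RNA with the VAHTS Universal V6 kit, per the labels' protocols. The build GRCm39 and the tools DESeq2 1.40.2, featureCounts 2.0.1, HISAT2 2.1.0 and fastp 0.23.2 are named, with no roles, per the submitters' processing notes. How strand and multiply matched reads were handled is not stated there. The authors deposited raw counts per gene and FPKM, which equal count over length and library total within 4.87e-06. The 9 members, the gene lists and the rule for named genes were chosen with earlier results of these data known.

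Tests used edgeR 4.0.16 (R 4.3.3) with quasi-likelihood fits on the deposited counts, with TMM scaling, a filter on low counts by group and all 8 libraries, which kept 17976 genes, 8 of the 9 members among them. The coefficient of biological variation came to 6.31%. P-values were adjusted by Benjamini and Hochberg's method across all genes tested, and genes below 0.05 were called in 5 comparisons. SE is the log2 fold change over the square root of F. Every member was named; of the other formative genes up to 5 called ones with the lowest adjusted p were named in each comparison, with Sox2, Pou5f1 and Nanog. Promoters came from RefSeq and gene order from GENCODE vM21. Alternatives were other scalings, no filter, only the compared libraries, DESeq2 1.42.0, limma 3.58.1 on log2(FPKM + 1) or log2(FPKM + 0.1), a replicate block, and leaving out each library. Replicates varied more than counting error alone would give (chi-square 3.58 to 8.39 per degree of freedom). The edgeR step was run on counts simulated with the same spread for all genes, for HSVTK GANC against HSVTK DMSO alone. That run does not cover the other comparisons or genes of unlike spread. Some genes counted in the lists are not reported here by name.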

Additional observations from a re-analysis of the deposited data

Results flagged for a closer look

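The response to ganciclovir differed between HSVTK and Control cells for 4 of the 8 tested members, by a test of the difference itself in edgeR. Zic5 differed by -2.636 on the log2 scale, with a fold change of -2.18 in HSVTK cells and 0.46 in Control cells. Zic2 differed by -2.489, with -2.23 in HSVTK cells and 0.26 in Control cells. Otx2 differed by -1.571, with -1.65 in HSVTK cells and -0.08 in Control cells. Foxd3 differed by 0.534, with 0.64 in HSVTK cells and 0.11 in Control cells. The share of all genes called in this test was 25.6%.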

How the results depend on the processing

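Zic2, Zic5 and Otx2 kept their calls in every alternative run for ganciclovir in HSVTK cells, for the difference of responses and for HSVTK against Control cells under DMSO. Over all members, comparisons and alternatives, 632 fold changes kept direction and side of the threshold, 24 lost the call, 5 gained it and 11 changed sign, none of the 11 a called value. The number of members called in Control cells was 2 in the main test, 1 with only the libraries compared and 0 in each of the 3 limma settings, where 4 had an unadjusted p below 0.05. DESeq2 called 3. Leaving out 1 library gave 1 to 3 there, 4 to 5 in HSVTK cells under ganciclovir against DMSO, 4 to 5 for the difference of responses, 4 for HSVTK against Control cells under DMSO, and 6 to 7 under ganciclovir. Unfiltered limma on log2(FPKM + 1) called 4 members under ganciclovir, against 7. Sox4 in HSVTK cells (main log2 fold change -0.03, not called) was 0.0041 with library size scaling, 0.0015 and 0.0014 in limma with pseudocounts 1 and 0.1, and 0.0015 unfiltered. With 1 library left out, Sox4 there spanned -0.15 to 0.0647, Foxd3 in Control cells -0.0353 to 0.26, the difference of responses of Sox3 -0.0248 to 0.89, and Sox3 in HSVTK against Control cells -0.73 to 0.18 under DMSO and -0.11 to 0.48 under ganciclovir, none of them called in the main test. Foxd3 was called lower in HSVTK than in Control cells under DMSO with only the libraries compared (adjusted p = 0.0329), against 0.127. The cause was not tested. Over all genes, the calls in Control cells were 1453 in the main test, 942 with only the compared libraries, 190, 251 and 29 in limma with pseudocounts 1 and 0.1 and unfiltered, and 433 to 2010 when 1 library was left out, with 592 and 433 without the first and the second Control DMSO library and 728 without the second Control GANC library. Leaving out 1 library gave 3313 to 5627 genes against 5119 for the drug in HSVTK cells, with 3380 and 3313 without the first and the second HSVTK DMSO library. It gave 3415 to 4638 against 4595 for the difference, 4399 to 6560 against 6060 for the cell groups under DMSO, and 2999 to 4497 against 4685 under ganciclovir, the lowest without the second HSVTK GANC library. Unfiltered limma called 2615 genes against 5119 for the drug in HSVTK cells, 1981 against 4595 for the difference, 3652 against 6060 for the cell groups under DMSO and 2288 against 4685 under ganciclovir. Same-numbered libraries did not deviate together (correlations of -0.0636 to 0.0243). That cannot tell whether they were grown or prepared together, which the labels do not say. With a replicate block 5 members were called for ganciclovir in HSVTK cells, and 4932 among all genes. Fgf5 had at most 28 counts in a library, and its HSVTK DMSO libraries had 6 and 28.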

Other observations

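FGF family genes and their receptors, many of which pass signals between cells, were looked at as a list that includes Fgf5. Of 27 listed genes 19 were tested, and 2 rose and 6 fell in HSVTK cells under ganciclovir against DMSO, where 28.5% of all genes were called, 13.3% higher and 15.2% lower. The median log2 fold change was -0.11, against 0.01 over all genes. The receptor gene Fgfr2 fell by 1.12 (adjusted p = 8.47e-07), and Fgf11, an intracellular relative, by 1.32 (adjusted p = 0.000857), with 38 and 41 counts in HSVTK GANC, against 102 and 99 counts in HSVTK DMSO. The ligand gene Fgf8 fell by 2.53 (adjusted p = 0.0287), on few counts: 4 and 2 in HSVTK GANC, against 11 and 26 in HSVTK DMSO. Fgf17 and Fgf18 rose by 0.35 (adjusted p = 0.034) and 0.70 (adjusted p = 0.00539). These genes were named after their values were seen.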
